A study of Rattus norvegicus with 8 samples.

Results

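Lone circular RNAs (circRNAs) of the rat cerebral cortex are described here: circRNAs whose start and whose end were each used by no other circRNA of the same chromosome and strand, and that were listed above 0 in at least 4 of 8 libraries. Of 51995 circRNAs in the deposited table, 9221 had a unique start and a unique end, and 2030 of these met the detection rule. The other 7191 were listed in 3 libraries or fewer and are left out of the values below unless named. The reference for comparison was 18144 circRNAs with the same detection that shared a start, an end or both with at least 1 other circRNA. The rule used the positions and the number of libraries with a value, so counts of libraries are given as a description.

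A circRNA forms when a splice donor is joined to an acceptor that lies upstream of it, a reaction called back-splicing, which closes 1 or more exons into a ring without free ends. One gene can yield several circRNAs when a donor or an acceptor is used in more than one back-splice, and such circRNAs then share a start or an end. A lone circRNA is the product of a donor and acceptor pair for which no second partner was listed. Neurons are rich in circRNAs, many of which are more stable than the linear transcripts of the same gene.

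The libraries came from total RNA of 4 rat cortex samples labelled mTBI, which here stands for moderate traumatic brain injury, and 4 labelled sham. Injured cortex was taken from around the lesion on the side of the injury 24 h after it, and sham cortex from the same site. All animals were perfused with cold saline. The sources used here give neither strain nor age nor the injury method. No allele, transgene or drug is named for either group. The labels list separate cortex samples without naming the animals, so p-values measure the spread between these samples.

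Values are in RPM, reads assigned to a circRNA scaled to the library's total. The 8 libraries summed to 4966 to 5874 RPM over all circRNAs and listed 21508 to 23713 of them. If the smallest listed value stands for 2 reads, which was inferred from the spacing of the values, the lone circRNAs held 20778 to 24630 junction reads per library. The table carries no gene names, so circRNAs are named by position on Rnor_6.0, and the tissue label could not be checked against marker genes. In bulk tissue, fewer cells of a type and less RNA per cell cannot be told apart.

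Unique ends were most frequent among circRNAs that were seldom detected. Of 20544 circRNAs listed in 1 library, 5369 or 26.1% had unique ends, and of 9082 listed in all 8 libraries, 675 or 7.43%. Between these, the percentage was lower at each further library, from 16.8% at 2 libraries and 13.6% at 4 to 10.1% at 7. The 2030 lone circRNAs made up 10.1% of the 20174 circRNAs listed in at least 4 libraries. Of them, 33.3% were listed in all 8 libraries and 21.7% in exactly 4. The circRNAs sharing an end stood at 46.3% and 15.4%.

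**Figure D1:**
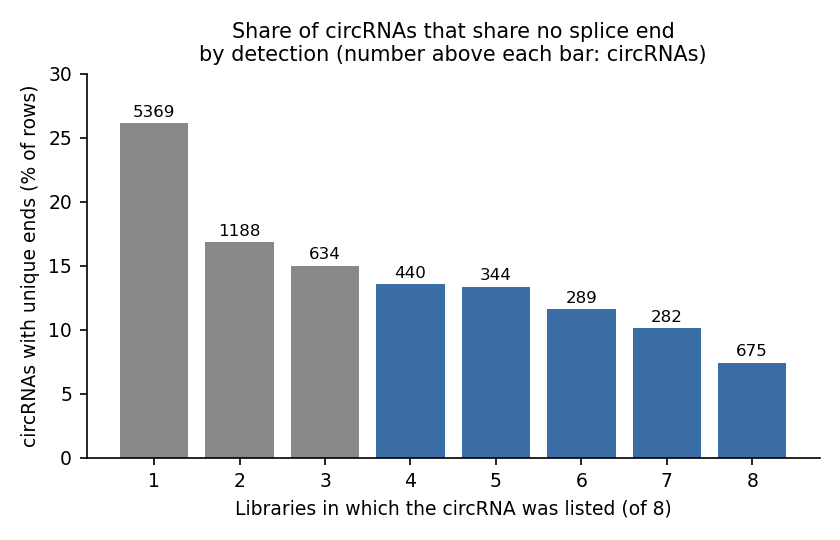
Percentage of circRNAs with a unique start and end (vertical axis) by the number of libraries in which a circRNA was listed (horizontal axis). Blue bars meet the rule of 4 libraries and grey bars do not; the number above each bar counts circRNAs with unique ends, from 5369 at 1 library to 675 at 8.

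At the edge of the rule, the 2 most abundant lone circRNAs listed in exactly 4 libraries were both short. On the minus strand, chr7:120908134-120908573 stood at 0.155, 0, 0.259 and 0.155 RPM in sham replicates 1 to 4 and at 0, 0.116, 0 and 0 RPM across mTBI libraries. The plus-strand chr1:211298599-211299678 stood at 0.246, 0.223, 0 and 0.129 RPM across sham libraries and at 0, 0.0515, 0 and 0 RPM across mTBI libraries. Both were thus listed in 3 sham libraries and 1 mTBI library. Of all 440 lone circRNAs listed in exactly 4 libraries, 101 were in 1 sham library, 221 in 2 and 107 in 3. These are 23.0%, 50.2% and 24.3%, against 20.6%, 52.6% and 23.9% of circRNAs sharing an end in exactly 4 libraries. The most abundant circRNAs with unique ends just outside the rule, at 3 libraries, averaged 0.0452 RPM for both chr1:162360198-162361587 and chr4:76052377-76144814, each on the plus strand. Both of these were listed in 2 sham libraries and in mTBI replicate 1.

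Uniqueness also depended on how rare a partner was counted. Of the 18144 circRNAs that shared an end, 1323 or 7.29% shared it only with circRNAs listed in 1 library, and 3060 or 16.9% only with circRNAs listed in at most 3. Those 3060 had a median span of 6785 bases and a median abundance of 0.0534 RPM. The 15084 with a partner listed in 4 or more libraries had a median span of 15376.5 bases and a median of 0.0729 RPM. By span and abundance, circRNAs with rare partners thus lay nearer to the lone circRNAs described next.

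Lone circRNAs covered short stretches of genome. The span, counted from start to end with introns included, had a median of 3443.5 bases and quartiles of 1272.75 and 8487.5 bases. Among circRNAs sharing an end, the median was 13533.5 bases and the quartiles 5233 and 29508.75 bases. Spans of up to 1000 bases were found for 411 lone circRNAs (20.2%) and for 969 sharing an end (5.34%). Spans over 20000 bases were found for 174 (8.57%) and 6738 (37.1%). Read the other way, among circRNAs listed in at least 4 libraries, lone ones made up 29.8% up to 1000 bases and 2.52% over 20000 bases.

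The difference in span was present at each level of abundance. Among circRNAs averaging up to 0.02 RPM, the median span was 4140 bases for 142 lone circRNAs and 15114 bases for 949 that shared an end. Between 0.1 and 0.3 RPM it was 3038 bases (340 circRNAs) against 13155.5 bases (4198). Above 3 RPM it was 626 bases (10 circRNAs) against 12307.5 bases (204). The median for lone circRNAs was lowest in the most abundant class, whereas that of circRNAs sharing an end lay between 11517.5 and 15114 bases in all classes. No test was made across circRNAs, since circRNAs of one gene are not independent. In each of the 8 libraries taken alone, the median span of the lone circRNAs listed there was 3265.5 to 3489.5 bases, against 13185 to 13464.5 bases.

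**Figure D2:**
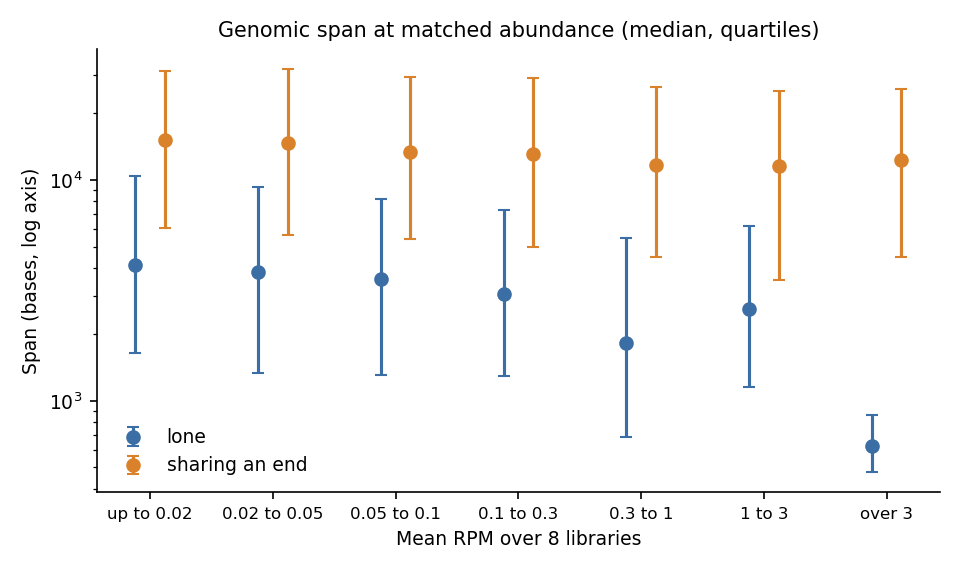
Genomic span in bases (vertical log axis) of lone circRNAs (blue) and circRNAs sharing an end (orange) in 7 classes of mean RPM over 8 libraries (horizontal axis). Points are medians and bars reach the quartiles; the blue medians lie below the orange ones in each class, at 626 against 12307.5 bases above 3 RPM.

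The lone circRNAs at either end of the range of spans had mean levels below 0.2 RPM. The shortest, on the plus strand at chr16:32457520-32457695, spanned 176 bases and had 0.0259 RPM in sham replicate 3; the values in mTBI replicates 2 to 4 were 0.0900, 0.0261 and 0.0260 RPM. It was followed by chr1:219971553-219971731, 179 bases on the plus strand, at 0.0388 to 0.129 RPM across sham libraries and 0 to 0.0903 RPM across mTBI libraries. The third, chr5:124249078-124249267 on the plus strand with 190 bases, stood at 0 to 0.0775 RPM across sham libraries and 0.0515 to 0.0521 RPM across mTBI libraries. In all 3 the ranges of the groups overlapped.

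The longest, on the minus strand at chr17:64135029-64234910, spanned 99882 bases. It stood at 0.220, 0.170, 0.272 and 0.193 RPM across sham libraries and at 0, 0.244, 0.156 and 0.0779 RPM across mTBI libraries, so that mTBI replicate 2 lay within the sham range. The next, chr17:5512106-5610834 on the plus strand, spanned 98729 bases and contained 55 shorter circRNAs of that strand, none with its start or end. It was listed at 0.0258 to 0.0516 RPM in 3 sham libraries and 0.0258 to 0.0651 RPM in 3 mTBI libraries. The third, chr13:80043498-80140114 on the minus strand with 96617 bases, was listed in 3 sham and 2 mTBI libraries at 0.0258 to 0.0655 RPM. These long circRNAs also had overlapping groups. Spans reached 99976 bases among circRNAs sharing an end, so both sets stop just short of 100000 bases.

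Lone circRNAs were less abundant in the median, and a few carried much of the total. Their median level was 0.0502 RPM, with quartiles of 0.0307 and 0.0973 RPM, against 0.0688 RPM (quartiles 0.0356 and 0.175 RPM) for circRNAs sharing an end. Levels of at least 1 RPM were reached by 38 lone circRNAs (1.87%) and by 844 sharing an end (4.65%). The most abundant 3 lone circRNAs held 13.4% of the RPM of all 2030, and the first 100 held 51.2%. Among circRNAs sharing an end, the first 3 held 3.20% and the first 100 held 22.8%. That set is larger, 18144 against 2030, so a fixed number is a smaller part of it and holds less for that reason too. Equal fractions of the 2 sets were not compared. Lone circRNAs of up to 1000 bases, 20.2% of the number, held 38.2% of the RPM. Of this, 8 circRNAs among the 12 most abundant held 20.4% of the RPM of all lone circRNAs, and the median of the short class was 0.0534 RPM. Short circRNAs sharing an end likewise held more than their part, with 5.34% of the number, 8.70% of the RPM and a median of 0.0842 RPM.

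In total, lone circRNAs made up a steady share of the circRNA signal. They held 5.54%, 5.59%, 5.57% and 5.34% of the circRNA RPM in sham replicates 1 to 4 and 5.40%, 5.65%, 5.55% and 5.44% in mTBI. The group means were 5.51% ± 0.114 in sham and 5.51% ± 0.115 in mTBI (SD, n = 4 each). Each library listed 1506 to 1650 of them, 1567 ± 38.5 in sham and 1580 ± 60.3 in mTBI (SD, n = 4 each). Both differences were smaller than the spread within either group. No p is given for such totals, because the circRNAs were chosen with results of these data known.

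Of the 12 most abundant lone circRNAs, 10 spanned less than 2000 bases. No other circRNA of the same strand overlapped 10 of them, as in 64.0% of all lone circRNAs. Among all lone circRNAs, 4 were among the 100 most abundant circRNAs tested, at ranks 11, 24, 40 and 73. The highest, chr15:47963486-47964008 on the plus strand with 523 bases, stood at 16.1, 16.8, 20.4 and 15.5 RPM across sham libraries. In mTBI it stood at 15.4, 17.9, 19.3 and 18.4 RPM. The groups overlapped, with a log2 change of 0.05 (SE 0.12, 95% interval -0.19 to 0.30, limma). Its nearest neighbour on the strand began or ended 832 bases away.

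The second, chr18:29633808-29634585 on the plus strand with 778 bases, was among the steadiest. It stood at 12.6, 12.7, 13.5 and 11.9 RPM across sham libraries and at 11.99, 13.1, 13.1 and 14.5 RPM across mTBI libraries. Its coefficient of variation (SD over mean) over the 8 libraries was 0.0651, the smallest of the 201 lone circRNAs listed in all 8 libraries at or above the 90th percentile of abundance, 0.244 RPM. The third, chr18:75429814-75430443 on the minus strand with 630 bases, stood at 9.87 ± 0.873 RPM across sham libraries and 8.63 ± 0.601 RPM across mTBI libraries (SD, n = 4 each). Its log2 change was -0.19, with a 95% interval of -0.44 to 0.06 (limma). Together these 3 circRNAs lay on 2 chromosomes. Among circRNAs listed in at least 4 libraries, lone circRNAs held 20.2% of the RPM on chromosome 15 and 18.8% on chromosome 18. Their share was also high on chromosomes 20 (17.8%) and 11 (11.9%), which hold none of these 3 circRNAs. It was lowest on chromosome 17, at 2.54%.

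The fourth, chr11:61121301-61122547 on the plus strand with 1247 bases, stood at 7.39, 6.68, 8.05 and 5.57 RPM across sham libraries and at 5.43, 5.36, 6.07 and 6.10 RPM across mTBI libraries. Sham replicate 4 lay within the mTBI range, so the groups overlapped (log2 change -0.26, 95% interval -0.53 to 0.02, limma). Next came chr10:63332239-63332486, plus strand, 248 bases, at 5.09 ± 0.394 RPM across sham libraries and 5.11 ± 0.80 RPM across mTBI libraries, and chr1:78369712-78370333, plus strand, 622 bases, at 4.41 ± 0.532 and 4.50 ± 0.0469 RPM (SD, n = 4 each). The first circRNA lay above the second in range and the second above the third, while from the third on the ranges over 8 libraries of neighbours in this order overlapped. These were followed by chr11:34017712-34018067, plus strand, 356 bases (4.12 ± 0.620 and 4.40 ± 1.21 RPM), and chr1:165414771-165415667, plus strand, 897 bases (3.96 ± 0.834 and 4.11 ± 1.15 RPM; SD, n = 4 each).

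The last 4 of the 12 lay close together in level. On the minus strand, chr9:31437020-31442183, 5164 bases, stood at 3.14 ± 0.162 RPM across sham libraries and 3.23 ± 0.369 RPM across mTBI libraries. On the plus strand, chr20:4580955-4581414, 460 bases, stood at 3.25 ± 0.490 and 3.09 ± 0.491 RPM. The minus-strand chr20:43092420-43093954, 1535 bases, stood at 2.82 ± 0.508 and 2.76 ± 0.452 RPM (SD, n = 4 each). The twelfth, chr10:62623758-62664462, was the only one over 20000 bases and the only one of the 12 whose groups did not overlap, as described with the groups below.

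**Figure D3:**
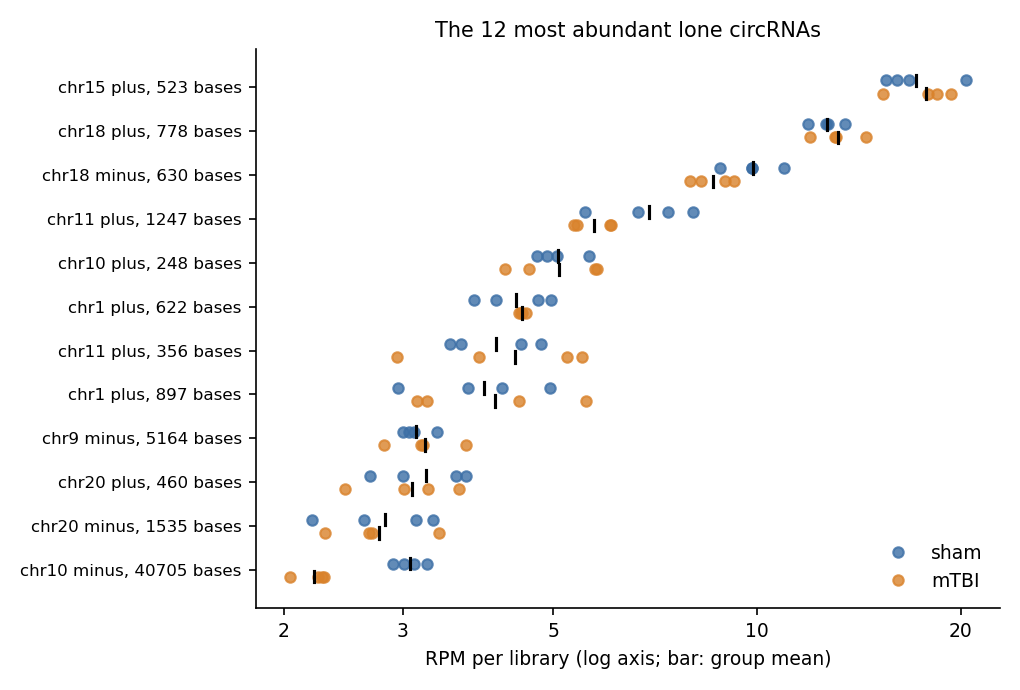
RPM in each library (horizontal log axis) of the 12 most abundant lone circRNAs, named by chromosome, strand and span; blue points are sham, orange points mTBI and black ticks group means. Sham and mTBI points overlap in 11 rows, and in the bottom row, with 40705 bases, mTBI points lie at 2.05 to 2.30 RPM, below sham at 2.90 to 3.26 RPM.

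Most lone circRNAs stood apart on the genome as well. Of the 2030, 1299 (64.0%) overlapped no other circRNA of their strand, including those listed in 1 library. The nearest circRNA was 36702 bases away in the median of these 1299, within 10000 bases for 349 and over 100000 bases away for 365. The other 731 overlapped 2 circRNAs in the median. Of these, 286 lay inside a longer circRNA, 83 contained a shorter one and 589 overlapped one in part, with some in more than one class. The median span was 2417 bases without overlap and 6503 bases with overlap, and the median abundance was 0.0503 and 0.0486 RPM. Sharing circRNAs overlap their partners by construction, so no comparison with them was made.

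Few of the ends came close to being shared. Only 2 lone circRNAs had a start or end within 10 bases of another circRNA's, both at a distance of 5 bases. These were chr15:60010999-60039883, whose end lay 5 bases from another, and chr5:153158005-153165563, whose start did, both on the minus strand and listed in all 8 libraries. Within 100 bases there were 8. In the whole table, neighbouring starts or neighbouring ends lay 3 to 5 bases apart in 414 cases. The nearest other start was 16359.5 bases away in the median and the nearest other end 15901.5 bases.

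The 2 strands were used about equally, with 1043 lone circRNAs (51.4%) on the plus strand, against 50.1% of circRNAs sharing an end. On the genome, 17 lone circRNAs (0.837%) overlapped a circRNA of the opposite strand, against 1.29% of those sharing an end, and 0 had a start or end within 10 bases of one there. Lone circRNAs were found on all 21 chromosomes with at least 100 circRNAs tested. Their percentage there ran from 6.76% on chromosome 17 (49 of 725) to 16.4% on chromosome 12 (79 of 483), with 12.7% on chromosomes 1 and 10. Chromosome 12 also had the lowest median span of circRNAs sharing an end, 7123.5 bases. Over the 21 chromosomes, the percentage of lone circRNAs and that median span had a Spearman rho of -0.61, which is given as a description since all chromosomes share the same libraries. On chromosome Y, 1 of 18 circRNAs was lone.

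The spread between libraries of a group depended on abundance in lone circRNAs and in those sharing an end alike. In sham, the median coefficient of variation of lone circRNAs was 0.617 between 0.05 and 0.1 RPM, 0.252 between 0.3 and 1 RPM and 0.124 above 3 RPM. The values for circRNAs sharing an end were 0.583, 0.224 and 0.101. In mTBI, the corresponding medians were 0.620, 0.249 and 0.105 for lone circRNAs and 0.584, 0.232 and 0.124 for the others. Detection followed abundance as well: between 0.1 and 0.3 RPM, 92.1% of lone circRNAs and 92.4% of the others were listed in all 8 libraries.

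Some abundant lone circRNAs varied more. They were ranked by the coefficient of variation over all 8 libraries, which also takes in the difference between the groups, unlike the medians above. The highest among the 201 named above was 0.658, for chr12:8089735-8096761 on the plus strand, and it was 0.569 to 0.584 for the next 3. Within groups, chr12:8089735-8096761 had coefficients of 0.514 in sham and 0.395 in mTBI. That circRNA stood at 0.375, 0.957, 0.699 and 0.309 RPM across sham libraries and at 0.284, 0.283, 0.104 and 0.324 RPM across mTBI libraries. Sham was higher in the mean, while mTBI replicate 4 lay above sham replicate 4 (limma adjusted p = 0.675). On the plus strand, chr3:113149412-113149914 ranged from 0.207 to 0.967 RPM across sham libraries and from 0.167 to 0.831 RPM across mTBI libraries, and on the minus strand chr19:57471129-57475866 ranged from 0.129 to 0.633 and from 0.104 to 0.386 RPM. At the other end, chr1:78369712-78370333, chr9:31437020-31442183 and chr20:5090501-5090805, the last at 1.91 ± 0.243 RPM across sham libraries and 1.86 ± 0.0850 RPM across mTBI libraries (SD, n = 4 each), had coefficients of variation of 0.0792, 0.0843 and 0.0906.

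The study's comparison asks which circRNAs differ between injured and sham cortex. It was made with limma on log2(RPM + 0.0259) over all 20174 circRNAs listed in at least 4 libraries. None of the 2030 lone circRNAs passed an adjusted p of 0.05, where 5 circRNAs or 0.0248% of all tested did. An unadjusted p under 0.05 was reached by 104 lone circRNAs (58 higher and 46 lower in mTBI), or 5.12%, against 4.68% of all tested. With limma voom on reads, 0 lone circRNAs passed, where 3 circRNAs or 0.0149% of all tested did. The smallest adjusted p of a lone circRNA was 0.0553 (limma), described last.

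The sizes of change were like those of the whole table. The median log2 change was -0.000875 in lone circRNAs and -0.02 over all tested, with 1009 lone circRNAs above 0 and 1021 below. Changes smaller than 0.5 in either direction were seen in 65.8% of lone circRNAs and 70.1% of all tested. In those averaging at least 0.3 RPM, where the spread was smaller, it was 92.5% of 161 and 93.1% of 3009. All values of one group lay above all values of the other for 57 lone circRNAs, 30 higher and 27 lower in mTBI. That is 2.81% of lone circRNAs, where 2.81% of all tested had such groups. By direction it is 1.48% higher and 1.33% lower, against 1.39% and 1.41%. A lone circRNA listed in 1 group alone could enter only with non-overlapping groups, so these counts are a description.

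**Figure D4:**
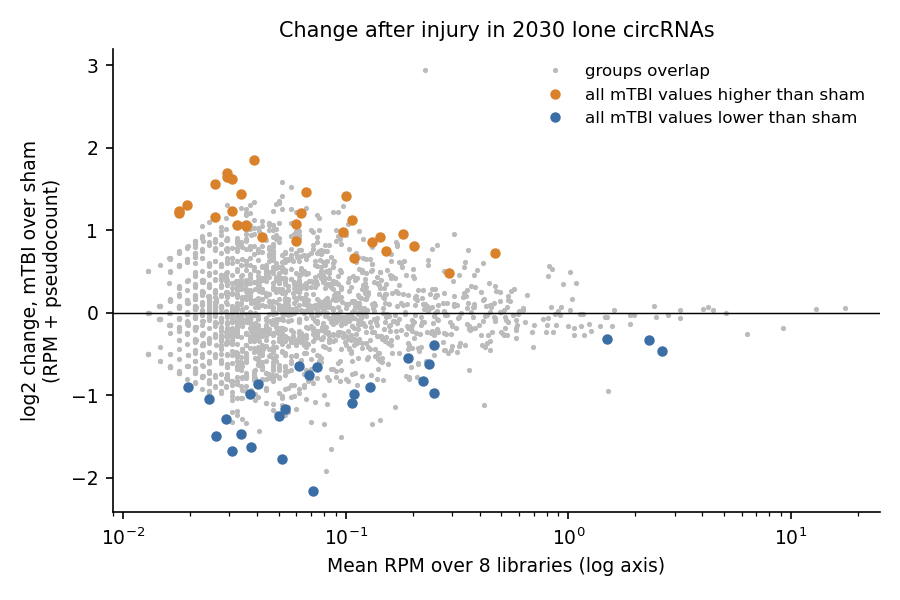
The log2 change of RPM plus pseudocount, mTBI over sham (vertical axis), against mean RPM over 8 libraries (horizontal log axis) for the 2030 lone circRNAs. Orange and blue points are the 30 and 27 circRNAs whose mTBI values all lay above or all below sham; grey points overlap between groups, and the spread of changes narrows with abundance.

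Of these 57, 4 averaged at least 0.3 RPM. They were 2.48% of the 161 lone circRNAs at that level, against 2.77% of circRNAs sharing an end. None of the 57 passed the test. The clearest by level, chr10:62623758-62664462 on the minus strand with 40705 bases, stood at 3.01, 3.12, 3.26 and 2.90 RPM across sham libraries and at 2.24, 2.28, 2.05 and 2.30 RPM across mTBI libraries. The 4 mTBI values lay below the lowest sham value, with a log2 change of -0.47 (SE 0.14, 95% interval -0.76 to -0.17, limma adjusted p = 0.773). It contained 1 shorter circRNA of its strand and ended 571 bases from the nearest other end there.

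In the other direction, chr2:141024600-141026192 on the minus strand, 1593 bases, stood at 0.388, 0.223, 0.414 and 0.387 RPM across sham libraries and at 0.671, 0.553, 0.534 and 0.584 RPM across mTBI libraries. Its log2 change was 0.72 (SE 0.24, 95% interval 0.22 to 1.22, limma adjusted p = 0.866). The nearest circRNA on its strand was 417254 bases away. The remaining 2, chosen after their values were seen, were lower in mTBI by smaller amounts. The plus-strand chr5:76925720-76926914 stood at 2.56 ± 0.188 RPM across sham libraries and 2.03 ± 0.175 RPM across mTBI libraries, and chr20:5129033-5131408 at 1.67 ± 0.158 and 1.33 ± 0.0576 RPM (SD, n = 4 each, limma adjusted p = 0.973 for both). For chr20:5129033-5131408 the 95% interval of the log2 change, -0.66 to 0.01, included 0.

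Of the 57, 11 were listed in 1 group only: 8 in mTBI only (0.394% of lone circRNAs, where 0.233% of all tested were) and 3 in sham only (0.148%, where 0.228% of all tested were). All were low, and 0 may stand for a single read if the smallest listed value is 2 reads. The mTBI-only circRNA with the highest mean, chr10:40323935-40333780 on the minus strand, stood at 0.0258, 0.0772, 0.156 and 0.0519 RPM across mTBI libraries and was listed at 0 in all 4 sham libraries. The plus-strand chr8:58382689-58384207 was at 0.0258, 0.0900, 0.104 and 0.0260 RPM across mTBI libraries, and chr14:82129854-82130545 on the minus strand at 0.0387, 0.0386, 0.104 and 0.0519 RPM. Both were listed at 0 in sham. The smallest values here equal the smallest that a library can list.

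The remaining mTBI-only circRNAs with the smallest p had narrower ranges. On the minus strand, chr7:117149337-117149558 with 222 bases stood at 0.0515 to 0.0651 RPM across mTBI libraries and lay 78 bases from its nearest neighbour. The minus-strand chr9:119720405-119769898, 49494 bases, stood at 0.0386 to 0.0782 RPM across mTBI libraries. It overlapped 17 other circRNAs of its strand, none with its ends. For these 5 the limma adjusted p was 0.711 to 0.866.

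The 3 sham-only circRNAs were all on plus strands. At chr4:121640072-121645519 the sham values were 0.0517, 0.105, 0.0259 and 0.0645 RPM. At chr11:66944198-66957605 they were 0.0258, 0.210, 0.0388 and 0.0258 RPM, and at chr1:57494438-57498775 they were 0.0388, 0.105, 0.0259 and 0.0387 RPM. In each, sham replicate 2 was the highest (limma adjusted p = 0.821, 0.872 and 0.899). Near to these were 2 plus-strand circRNAs listed in all sham libraries and in 1 mTBI library. The first, chr7:43421374-43428623, stood at 0.0517, 0.197, 0.0518 and 0.245 RPM across sham libraries and at 0.0257 RPM in mTBI replicate 2 (log2 change -2.17, SE 0.58, limma adjusted p = 0.540). With 3 libraries at 0, this change depends on the pseudocount, and it was -1.03 with 4 times the pseudocount, -2.85 with 0.5 times and -3.56 with limma voom. The second, chr1:188488054-188494331, stood at 0.0388, 0.157, 0.0647 and 0.116 RPM across sham libraries and at 0.0387 RPM in mTBI replicate 1 (limma adjusted p = 0.822). In it, the lowest sham and the highest mTBI value differ by less than 1 read, so that the groups are apart by the scaling alone.

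**Figure D5:**
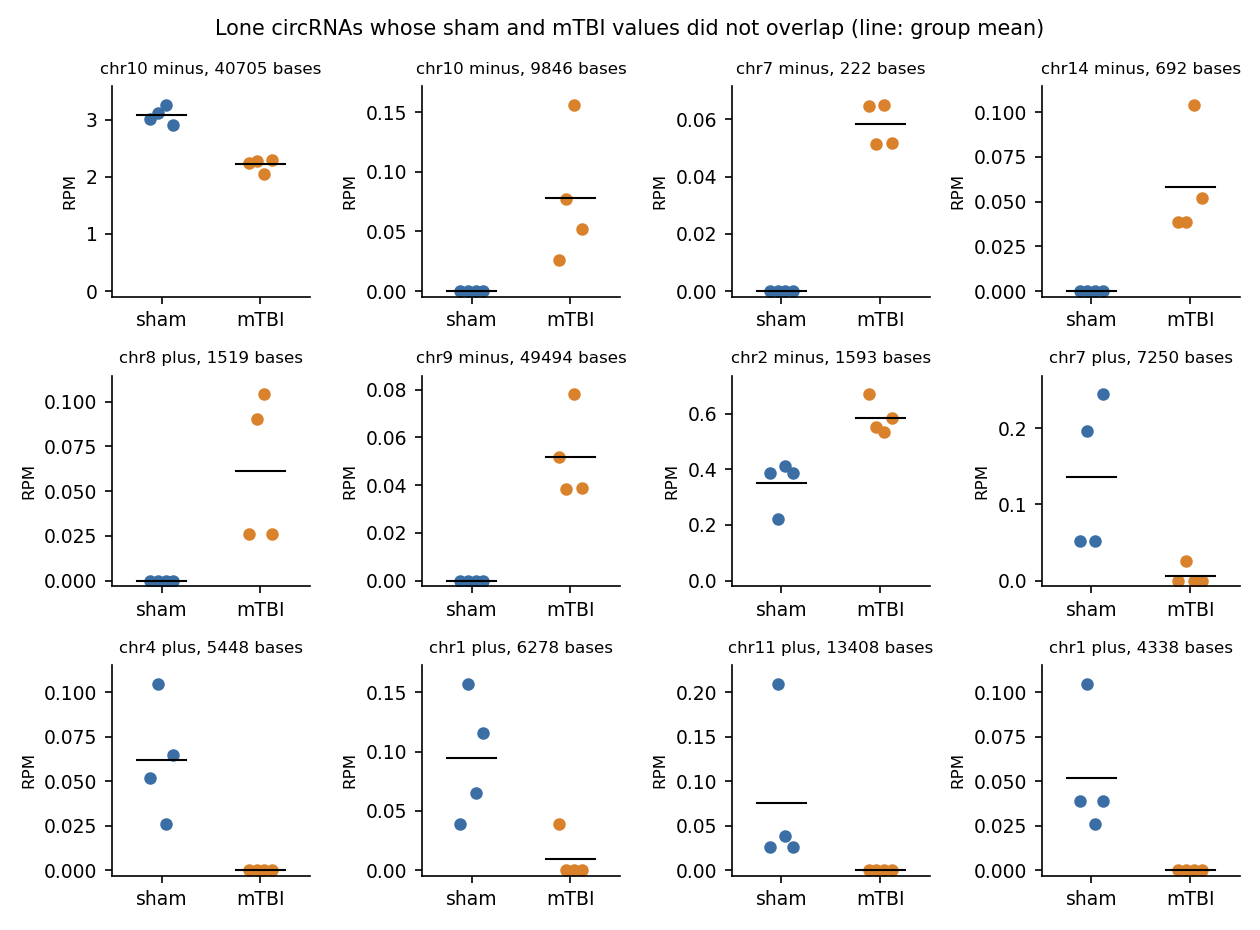
RPM per library (vertical axes, each from 0) in sham (blue) and mTBI (orange) for 12 lone circRNAs whose groups did not overlap, 6 higher and 6 lower in mTBI, chosen by smallest p; lines are group means. Only the panels with 40705 and 1593 bases average over 0.3 RPM; 8 panels have all values of a group at 0.

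The lone circRNA with the smallest p, chosen here after its values were seen, had overlapping groups. On the minus strand, chr2:23042186-23044366, 2181 bases, had a value in 1 sham library, replicate 3, at 0.336 RPM, and the other 3 were at 0. In mTBI it stood at 0.516, 0.347, 0.248 and 0.363 RPM. The log2 change was 2.94 (SE 0.58, 95% interval 1.76 to 4.11, limma adjusted p = 0.0553), a value that depends on the pseudocount because 3 libraries were at 0. It was 1.64 with 4 times the pseudocount, 3.65 with 0.5 times and 4.38 with limma voom. The circRNA was listed in 5 libraries, and its 4 mTBI libraries, the group in which it was high, were enough to meet the detection rule. It passed without sham replicate 3 (limma adjusted p = 2.95e-05), where 0.0397% of all tested did, at a log2 change of 3.89, but that library held the only sham value above 0. It also passed with 4 times the pseudocount, no filter on low values, libraries centred on their median and robust shrinkage, where 0.0496%, 0.106%, 0.0446% and 0.114% of all tested did. Over all alternatives, its adjusted p ran from 3.76e-08 to 0.903. It overlapped 4 other circRNAs of its strand without sharing an end.

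Also among the most variable lone circRNAs was chr4:64265934-64270334 on the minus strand, 4401 bases. It stood at 3.01, 2.33, 1.88 and 0.838 RPM across sham libraries and at 0.955, 0.733, 0.651 and 1.66 RPM across mTBI libraries. In all, 3 sham libraries lay above all mTBI libraries, and sham replicate 4 lay within the mTBI range. The log2 change was -0.95 (SE 0.27, 95% interval -1.50 to -0.39, limma adjusted p = 0.655). It passed without sham replicate 4, the sham value within the mTBI range, at a log2 change of -1.31 (limma adjusted p = 0.0281, 0.0397% of all tested called), and with no filter on low values (0.00229), but in no other alternative.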

How the data were processed

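Trimmomatic 0.36, DESeq and the build Rnor 6.0 are named in the submitters' processing notes. The aligner is not given in the sources used here, nor is the circRNA caller. Libraries came from ribosomal RNA-depleted stranded total RNA with an integrity number of at least 7, per the labels. The authors deposited RPM values, with 1 column per library and positions in the row names, used as given; 0 columns were unmapped. Columns named Con were taken as the sham replicates of the same number, which the labels also call controls. All values were whole multiples, within 0.01 reads, of 0.5 times the smallest one, taken as 2 reads.

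Span is end minus start plus 1. Tests used limma 3.58.1 (R 4.3.3; lmFit, eBayes with trend) on log2(RPM + 0.0259), the median smallest value, over 20174 circRNAs above 0 in at least 4 libraries, two-sided, with Benjamini-Hochberg adjustment. Python 3.11.15, numpy 2.4.6, pandas 2.3.3 and matplotlib 3.10.9 served for the rest. The fit was tried on simulated reads that had the same dispersion for all circRNAs. Changed circRNAs were scored there only at a mean of at least 10 reads, which 376 of the 2030 lone circRNAs reached. How often it calls changes in rarer ones was not tested. Replicates differed by more than counting noise (chi-square per degree of freedom 2.31 to 3.51 over lone circRNAs, minimum 20 reads per pair).

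The circRNAs and lists were chosen with earlier results of these data known. Named were the 12 most abundant, 6 per direction by smallest p with groups apart, 3 per direction listed in 1 group, the 3 longest and shortest, the 4 most and least variable, the 4 most abundant without overlap, and those at the edge of the rule. Alternatives covered the pseudocount, filter, scaling, variance model, replicate number, each library left out and the definition of a lone circRNA. No genome of this build was used, so no sequence or gene is given.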

Additional observations from a re-analysis of the deposited data

Results flagged for a closer look

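In 68 groups of 4 libraries, covering the named lone circRNAs, their share of RPM and the number listed, 8 had 1 library far from the other 3, by a gap to the nearest library that took up more of the group's range than Dixon's 95% critical value for 4 samples. For independent, normally distributed values chance gives about 1 group in 20, or 3.4 of 68, and a group with 1 library above 0 always gives a ratio of 1.

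Sham replicate 2 was the library in 3 of them. At chr2:141024600-141026192 it stood at 0.223 RPM against 0.387 to 0.414 RPM in the other sham libraries (ratio 0.857), at chr11:66944198-66957605 at 0.210 RPM against 0.0258 to 0.0388 RPM (0.929) and at chr1:57494438-57498775 at 0.105 RPM against 0.0259 to 0.0388 RPM (0.837).

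The other 5 were groups with a value in 1 library only. They were mTBI replicate 2 at chr7:43421374-43428623 (0.0257 RPM), chr7:120908134-120908573 (0.116 RPM) and chr1:211298599-211299678 (0.0515 RPM), mTBI replicate 1 at chr1:188488054-188494331 (0.0387 RPM) and sham replicate 3 at chr16:32457520-32457695 (0.0259 RPM).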

How the results depend on the processing

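The limma count of 5 circRNAs called over all tested was 10 with 4 times the pseudocount, 55 with no filter, 0 with a minimum mean of 10 reads, 9 after centring each library on its median, 1 with no variance trend, 23 with robust shrinkage and 3 with limma voom on reads. It was 3 to 8 without each library in turn. Of lone circRNAs, where 0 were called, 1 was called with 4 times the pseudocount, with centring and with robust shrinkage, 2 with no filter, and 0 to 1 without each library in turn. The 1 called was chr2:23042186-23044366 without sham replicate 3 and chr4:64265934-64270334 without sham replicate 4. The edgeR test planned on reads was not run, because a separate estimate of the step between values did not accept them as whole reads. This differs from the spacing described under the processing, by which all values were whole multiples of the inferred read unit. Which of these checks is right was not tested. The limma voom fit used the inferred reads and depends on that unit. Same-numbered sham and mTBI libraries did not deviate together (r = 0.0067, 0.0011, -0.0036 and 0.0066), nor did differently numbered ones (r = -0.0114 to 0.0127). Counting error can also bring r near 0, so whether the numbers pair the samples cannot be told from these values. With the replicate number as a block, 0 circRNAs were called over all tested and 0 lone ones.

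The number of lone circRNAs changed with their definition. Counting an end as shared only with circRNAs listed in at least 2 or at least 4 libraries gave 3353 or 5090 lone circRNAs, with a median span of 4256 or 5309 bases and 8.97% or 13.5% of the circRNA RPM. A minimum of 3 libraries gave a median span of 3563 bases, a median of 0.0357 RPM and 5.71% of RPM. Listing in all 8 libraries gave 675 circRNAs, a median span of 2843 bases, 0.141 RPM and 4.47% of RPM. Without overlap with another circRNA of the strand there were 1299, with a median span of 2417 bases and 4.05% of RPM. Of these 1299, 37 had sham and mTBI values that did not overlap, where 2.81% of all tested had such groups. This count was added after the data were seen. With overlap counted only against circRNAs listed in at least 4 libraries, also added after the data were seen, 1721 were without overlap.

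Of 36 named lone circRNAs, 12 changed the sign of their log2 change when a library was left out. Their ranges were -0.0727 to 0.0775 at chr10:63332239-63332486, -0.0288 to 0.0958 at chr1:78369712-78370333, -0.0603 to 0.24 at chr11:34017712-34018067, -0.12 to 0.15 at chr1:165414771-165415667, -0.0319 to 0.10 at chr9:31437020-31442183 and -0.16 to 0.0337 at chr20:4580955-4581414. At chr20:43092420-43093954 the range was -0.14 to 0.0574, at chr5:124249078-124249267 -0.0541 to 0.61, at chr17:5512106-5610834 -0.27 to 0.40, at chr20:5090501-5090805 -0.0916 to 0.0485, at chr19:57471129-57475866 -0.43 to 0.27 and at chr3:113149412-113149914 -0.64 to 0.11. The other named lone circRNAs kept their direction in every alternative that gave a value, and the cause of the changes above was not tested. Rare circRNAs fall out under the minimum of 10 reads and have no value there. Below 0.1 RPM, where most lone circRNAs lay, counting error limits what a difference between groups can show.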

Other observations

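Some lone circRNAs were listed at 0 in single libraries although they were not rare. Of 376 lone circRNAs averaging at least 10 reads, 11 (2.93%) were at 0 in at least 1 library, against 180 of 5738 circRNAs sharing an end (3.14%). The most abundant was chr10:7229937-7231476 on the minus strand, at 0.801, 0.564, 0.530 and 0 RPM across sham libraries and 0.194, 0.180, 0.234 and 0.493 RPM across mTBI libraries. The plus-strand chr8:13868732-13870074 stood at 0.310, 0, 0.298 and 0.413 RPM across sham libraries and at 0.257 to 0.586 RPM across mTBI libraries. These 2 were missing from 1 sham library each, and a different one.

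The plus-strand chr9:17719013-17719705 stood at 0.0388 to 0.103 RPM across sham libraries, at 0 in mTBI replicates 1 and 2, at 0.899 RPM in replicate 3 and at 0.156 RPM in replicate 4. Here 1 mTBI library lay far above the other 7. On the minus strand, chr2:120517204-120520196 was at 0 in sham replicate 3 and mTBI replicate 2 and at 0.105 to 0.310 RPM elsewhere. The plus-strand chr3:172518176-172524861 was at 0 in replicate 1 of both groups and at 0.155 to 0.275 RPM elsewhere. These circRNAs were chosen by a rule set after their values were seen, and whether the caller, the reads or the genome of a rat sets such zeros was not tested.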
